A study of Mus musculus with 6 samples.

Results

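The class I odorant receptors at the low-coordinate end of their cluster on mouse chromosome 7 were compared between main olfactory epithelium of wild-type and of 5x21-OR1A1 mice. The members are the 36 genes of the count table with a symbol from Olfr543 to Olfr591 and no pseudogene suffix, out of 1106 odorant receptor genes chosen by the same form of symbol and 53686 genes in all. Poly-A RNA of the dissected tissue was sequenced in 3 libraries of each genotype, wild-type and hemizygous for 5x21-OR1A1, all on strain C57BL/6J. OR1A1 is a human odorant receptor of class II. The labels do not describe the construct, its promoter or its insertion site, and give neither age nor sex. RNA of the transgene was not analysed here. By Xist and Ddx3y, RNAs of the female and the male, 1 of 3 wild-type and 2 of 3 transgenic libraries were female. The labels number the libraries as replicates without saying that each is a separate animal. Each group held libraries of both sexes, so its 3 libraries were not all from the same animal. Whether those of the same sex came from separate animals is not known. Every p here is set by the variation among these 6 libraries, which may in part be technical.

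Odorant receptors are G-protein-coupled receptors of the olfactory sensory neurons, and each mature neuron expresses a single receptor gene from a single allele. Mammalian receptors fall into class I, related to the receptors of fish and gathered in 1 cluster, and class II, spread over many chromosomes. Most class I receptors are used by neurons of the dorsal part of the epithelium, and a long-range enhancer within the cluster, the J element, controls many of them in cis. In bulk tissue, fewer neurons that chose a receptor and less receptor RNA per neuron cannot be told apart.

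All 36 members lay on chromosome 7 of GRCm38 between positions 102476579 and 103178340, a stretch of 702 kb, with 20 genes on the plus and 16 on the minus strand. Their receptor family (MOR) names in the reference annotation were all class I. Receptor coding sequence sits in 1 exon. All 28 members that could be tested had at least 1 further exon in the annotation. Of the 8 members with too few counts to test, 7 were annotated as a single exon. Counts also grow with annotated exon length, so passing the filter and the number of exons are not independent. The members include very similar genes and well separated relatives, which decides how far reads of 100 bases could be assigned. The coding stretch that holds the conserved motif at the end of the third transmembrane helix shows this for the 3 genes of family MOR42, at the first end of the interval. It is shown 5′ to 3′ on the coding strand of the GENCODE transcripts, and capitals mark bases that differ from Olfr544.
Olfr544: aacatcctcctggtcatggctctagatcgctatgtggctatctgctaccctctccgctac
Olfr545: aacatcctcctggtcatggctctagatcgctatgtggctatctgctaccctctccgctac
Olfr543: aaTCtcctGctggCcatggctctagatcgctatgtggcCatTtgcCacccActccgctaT
These windows lie on the minus strand at chr7:102484711-102484770, chr7:102494366-102494425 and chr7:102477458-102477517. Olfr544 and Olfr545 were identical over the 60 bases and 90.4% identical over the longest open reading frame, and 128 words of 100 bases in their transcripts were shared. Olfr543 differed from Olfr544 at 9 of the 60 bases, was 66.2% identical to it over the reading frame, and shared no such word with any other gene. The same window is shown for family MOR18, Olfr557 and Olfr558, and for family MOR7, Olfr577 and Olfr578, of which none was called in the comparison below. Capitals mark bases that differ from the first gene of each pair.
Olfr557: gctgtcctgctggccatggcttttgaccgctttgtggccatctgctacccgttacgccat
Olfr558: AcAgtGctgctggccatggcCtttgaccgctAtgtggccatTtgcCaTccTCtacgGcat
Olfr577: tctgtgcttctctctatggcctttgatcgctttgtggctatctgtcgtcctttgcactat
Olfr578: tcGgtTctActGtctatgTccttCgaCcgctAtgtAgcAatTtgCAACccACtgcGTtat
These windows are at chr7:102698609-102698668 and chr7:102709603-102709662 on the plus strand and chr7:102973586-102973645 and chr7:102984761-102984820 on the minus strand. The MOR18 pair differed at 11 and the MOR7 pair at 19 of 60 bases, with 63.0% and 64.5% identity over the reading frames. Apart from 2 words that Olfr558 shared with a pseudogene lying inside it, these 4 genes shared no 100-base word with another gene.

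For 3 members that could be tested, Olfr544, Olfr558 and Olfr566, the RefSeq start (GRCm38.p6) lay within 150 bases of the GENCODE start. The bases before both starts are shown for these genes as examples of promoters of this interval, 2 of genes that fell and 1 of a gene that was not called. Capitals mark TAAT, the core of homeodomain sites such as those of Lhx2, read on either strand.
Olfr544: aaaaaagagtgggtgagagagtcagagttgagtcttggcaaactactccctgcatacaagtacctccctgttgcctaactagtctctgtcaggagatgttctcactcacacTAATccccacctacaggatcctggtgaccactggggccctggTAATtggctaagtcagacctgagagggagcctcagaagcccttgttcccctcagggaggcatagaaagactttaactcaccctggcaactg
Olfr558: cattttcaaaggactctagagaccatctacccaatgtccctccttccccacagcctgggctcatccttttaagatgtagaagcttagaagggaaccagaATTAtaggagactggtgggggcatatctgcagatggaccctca
Olfr566: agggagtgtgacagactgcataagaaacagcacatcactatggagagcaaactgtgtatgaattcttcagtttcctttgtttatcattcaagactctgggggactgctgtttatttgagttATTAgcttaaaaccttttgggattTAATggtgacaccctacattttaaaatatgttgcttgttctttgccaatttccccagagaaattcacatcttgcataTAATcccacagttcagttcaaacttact
They lie at chr7:102488314-102488557 (minus strand), chr7:102702073-102702214 (plus strand) and chr7:102858766-102859015 (minus strand). They held 2, 1 and 3 matches in 244, 142 and 250 bases. Of the 27025 RefSeq windows of 250 bases before a start, 55.3% held at least 1, as did 96.8% of the 31 member windows. The share was 91.4% for the other class I receptors and 93.8% for class II receptors. None of the 3 held CCCNNGGG, the core of Ebf sites (11.7% of all windows), the longer homeodomain form TAATTA (4.90%) or the TATA form TATAAA (13.0%), searched on both strands. Among the 31 member windows these forms were in 6.45%, 3.23% and 35.5%. Only 9 of these 31 windows had a RefSeq start within 150 bases of the GENCODE start. The rest lay inside the annotated span of their gene, so the member shares are mostly not of promoters. This was not checked for the other receptors, and the sets were not matched for base composition. TAATTA contains TAAT. These matches are a description of the letters, not of binding.

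Library totals ran from 27506217 to 35804712 counts, and the members together took 2540 to 11301 of them. In wild-type tissue the members took 0.0242%, 0.0316% and 0.0215% of all counts, and in transgenic tissue 0.0102%, 0.0103% and 0.00923%. The mean share was 0.0258% ± 0.00522 in wild-type and 0.00991% ± 0.00059 in transgenic libraries (SD, n = 3 each), and the log2 ratio of these means was -1.38. The groups did not overlap, and the wild-type values were the more spread. Wild-type library 2 was the highest wild-type library for 24 of 28 tested members. It also had the highest share of mature neuron markers, 2.72% of all counts against 2.04% and 2.27%.

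Of the 36 members, 20 were lower in transgenic tissue and none was higher, with library totals scaled by TMM. Among the 28 members tested, edgeR's quasi-likelihood test with Benjamini-Hochberg adjustment over 19267 genes called 20 lower and 0 higher at an adjusted p under 0.05, and 8 were not called. Over all genes tested, 2.2% were called lower and 0.519% higher. The called members were 2.14-fold to 10.4-fold lower, with a median of 3.69-fold. The median log2 fold change was -1.63 over the 28 members (middle 50% of members from -2.05 to -1.06, whole range -3.37 to 0.42) and 0.016 over all genes tested. For 22 of the 28 members every transgenic value was under every wild-type value, against 12.5% of all genes tested. The count of members called lower was 13 without transgenic library 1 and 13 without transgenic library 3, and was 16 without transgenic library 2 and 19 to 21 without any of the wild-type libraries. Leaving out transgenic library 1 or 3 lost the call for Olfr551, Olfr553, Olfr559, Olfr561, Olfr572, Olfr575 and Olfr576, and leaving out transgenic library 2 lost it for Olfr561, Olfr572, Olfr575 and Olfr576. The loss ran through the whole table: all calls were 523 of 19267 genes with the 6 libraries and 155 of 19619, 175 of 19759 and 150 of 19649 without transgenic library 1, 2 and 3. Of the 28, 25 reached the filter on low counts in both groups and 3 (Olfr550, Olfr559 and Olfr560) through the wild-type libraries alone. Without those 3, 17 of 25 were called lower, by at most 5.11-fold.

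**Figure D1:**
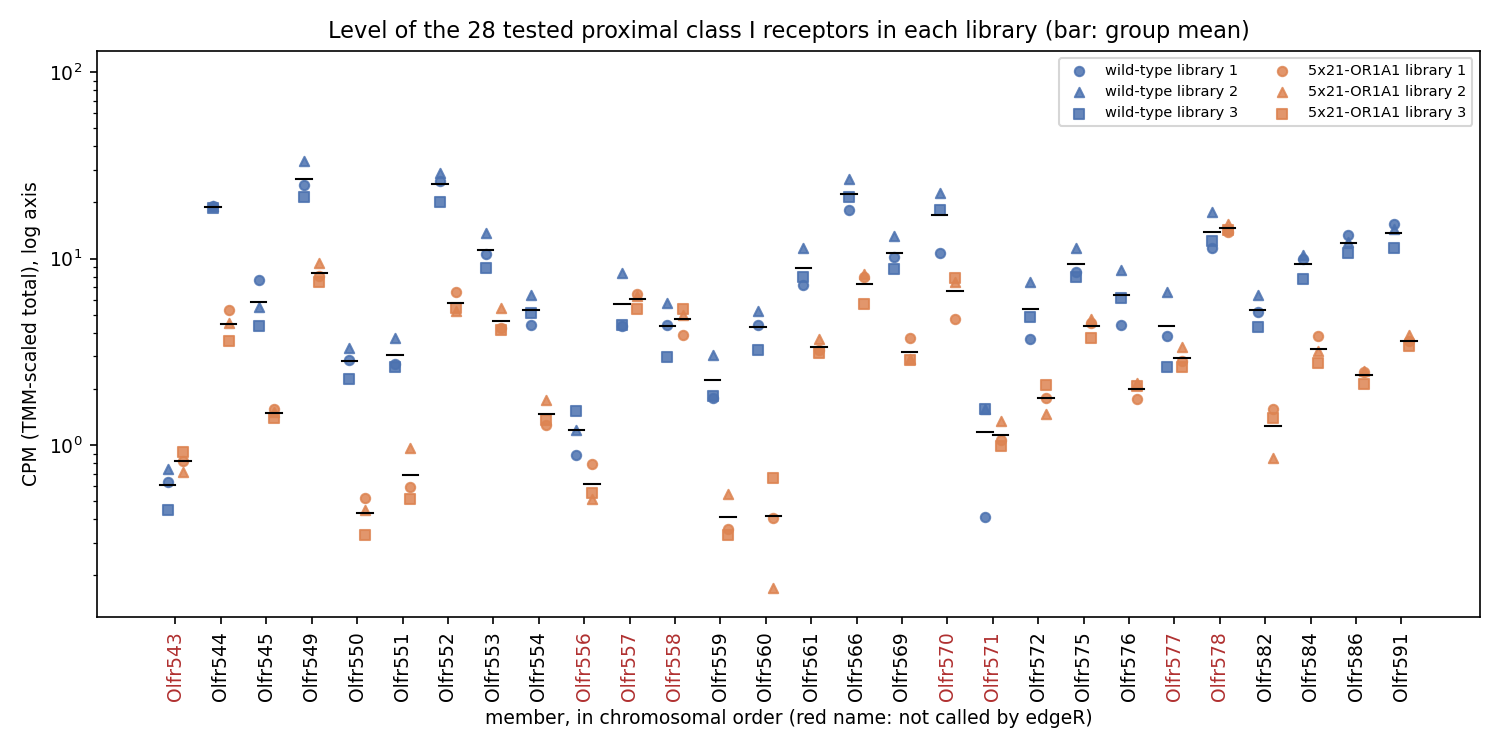
Level of each of the 28 tested members in every library, in CPM on a log axis, in chromosomal order, with a bar at each group mean. For 20 members the transgenic points lie together under the wild-type points and the gene was called lower. Names in red mark the 8 members that were not called, among them Olfr557, Olfr558 and Olfr578, whose groups overlap. With scaling to mature neuron markers these 3 and Olfr543 were called higher, as were 74.3% of all genes tested.

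Levels are given per library as CPM, the usual depth-scaled count, here on TMM-scaled totals, and wild-type values come first. Of the 8 members with the highest mean CPM, a measure that also grows with transcript length, Olfr549, Olfr552, Olfr553, Olfr566, Olfr544 and Olfr591 fell and Olfr570 and Olfr578 were not called. Olfr549 (MOR31-3, chr7:102549870-102555842, plus strand) had 24.8, 33.4 and 21.4 CPM in the wild-type and 8.01, 9.50 and 7.51 CPM in the transgenic libraries. It was 3.18-fold lower, with no overlap of the groups (log2 fold change -1.67, SE 0.18, edgeR adjusted p = 0.00400). It had the highest wild-type level per kb of exon, 14.0 CPM per kb. Olfr552 (MOR28-1, chr7:102597770-102608125, plus strand) stood at 26.1, 28.8 and 20.1 CPM against 6.62, 5.25 and 5.41 CPM. That is a log2 fold change of -2.11 (SE 0.16, edgeR adjusted p = 0.00142), and every transgenic value was under every wild-type value. Olfr566 (MOR14-7P, chr7:102855337-102858765, minus strand), a gene whose MOR name carries the pseudogene mark although the annotation gives it as protein coding, stood at 18.3, 26.9 and 21.3 CPM against 7.99, 8.30 and 5.71 CPM. It was 3.02-fold lower (log2 fold change -1.59, SE 0.19, edgeR adjusted p = 0.00571). Its coding sequence is 94.7% identical to that of Olfr583, but they shared only 2 words of 100 bases. Olfr591 (MOR24-1P, chr7:103167074-103178340, minus strand), the last member, had 15.3, 14.4 and 11.4 CPM against 3.63, 3.88 and 3.39 CPM, a log2 fold change of -1.92 (SE 0.15, edgeR adjusted p = 0.00142).

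Family MOR42 held 2 members that fell and 1 that was not called. Olfr544 (MOR42-3, chr7:102482031-102488313, minus strand), known as a receptor for azelaic acid that is also found outside the nose, had 19.02, 19.17 and 18.58 CPM in wild-type tissue, the smallest wild-type spread among the 8 members of highest CPM. In transgenic tissue it had 5.29, 4.49 and 3.61 CPM and was 4.22-fold lower (log2 fold change -2.08, SE 0.15, edgeR adjusted p = 0.00121). Olfr545 (MOR42-1, chr7:102491466-102499573, minus strand), also called S50, had 7.68, 5.49 and 4.36 CPM against 1.55, 1.51 and 1.40 CPM. It was 3.92-fold lower (log2 fold change -1.97, SE 0.24, edgeR adjusted p = 0.00591). For reads from the stretch these genes share, the counting rule is not known here, so their values are not fully separate. Olfr543 (MOR42-2, chr7:102476579-102481679, minus strand), the first gene of the interval, had 0.635, 0.741 and 0.450 CPM against 0.818, 0.721 and 0.921 CPM. Its groups overlapped and it was not called (log2 fold change 0.42, SE 0.29, edgeR adjusted p = 0.519).

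The lowest log2 fold changes were those of Olfr560, Olfr550, Olfr559, Olfr586 and Olfr551. Olfr560 (MOR14-1, chr7:102751818-102759366, minus strand) had 4.41, 5.25 and 3.22 CPM in wild-type and 0.409, 0.172 and 0.663 CPM in transgenic libraries. It was 10.4-fold lower (log2 fold change -3.37, SE 0.41, edgeR adjusted p = 0.00591), from 15, 5 and 18 counts in the transgenic libraries. Olfr78, on the same strand, spans the whole of this gene, 926 of its 2168 exon bases are also exon of Olfr78, and 36.3% of its 100-base words recur in Olfr78 or Olfr564. The value of Olfr560 therefore depends on how reads of the shared exon were counted. Olfr550 (MOR16-1, chr7:102571442-102583011, plus strand) followed with 2.86, 3.32 and 2.25 CPM against 0.518, 0.446 and 0.332 CPM. It was 6.41-fold lower (log2 fold change -2.68, SE 0.27, edgeR adjusted p = 0.00361). Olfr559 (MOR11-1, chr7:102723207-102727491, minus strand) was at 1.78, 3.05 and 1.83 CPM against 0.354, 0.549 and 0.331 CPM, a log2 fold change of -2.43 (SE 0.34, edgeR adjusted p = 0.0111). It had 13, 16 and 9 counts in the transgenic libraries. Of its 100-base words, 6.78% recur in Olfr33, so its value also depends on how ambiguous reads were counted. Olfr586 (MOR8-2, chr7:103118403-103125638, minus strand), which had more counts, gave the lowest adjusted p of the members. Its values were 13.4, 12.2 and 10.7 CPM against 2.45, 2.50 and 2.14 CPM, 5.11-fold lower (log2 fold change -2.35, SE 0.15, edgeR adjusted p = 0.000913). Olfr551 (MOR29-1, chr7:102583510-102591886, minus strand) had 2.73, 3.76 and 2.63 CPM against 0.600, 0.961 and 0.516 CPM, and its log2 fold change was -2.13 (SE 0.29, edgeR adjusted p = 0.0108). In each of these 5 genes the groups did not overlap.

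By family, most genes were called and a few were not. Of the MOR14 genes, 3 of 8 members could be tested and all 3 fell (Olfr560, Olfr561 and Olfr566). All 3 members of MOR30 fell, Olfr569 by 1.76, Olfr582 by 2.05 and Olfr584 by 1.52 on the log2 scale. These are near copies: Olfr582 and Olfr584 were 96.2% identical over the reading frame and shared 125 words of 100 bases, so their separate values depend on how ambiguous reads were counted. Both members of MOR25 fell, Olfr553 from 11.1 ± 2.47 to 4.60 ± 0.741 CPM and Olfr554 from 5.28 ± 1.01 to 1.46 ± 0.250 CPM (SD, n = 3 each). In MOR8, Olfr575 (log2 fold change -1.10), Olfr576 (-1.68) and Olfr586 fell and Olfr570 was not called. Olfr570 (chr7:102894577-102901710, plus strand) had 10.8, 22.5 and 18.1 CPM against 4.74, 7.51 and 7.84 CPM, with no overlap of the groups (log2 fold change -1.36, SE 0.29, edgeR adjusted p = 0.0546). Wild-type library 1 was low for this gene, and without it, or with DESeq2, with no filter, with the replicate block or with scaling to mature neuron markers, Olfr570 was called lower.

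Beside Olfr543 and Olfr570, 6 tested members were not called, and they were 2 pairs of family members and 2 single genes. With libraries scaled to mature neuron markers, Olfr543, Olfr557, Olfr558 and Olfr578 were called higher, as were 74.3% of all genes tested (described at the end). Of family MOR18, Olfr557 (MOR18-3, chr7:102695910-102700707, plus strand) had 4.35, 8.35 and 4.39 CPM in wild-type and 6.46, 6.31 and 5.34 CPM in transgenic tissue. Its log2 fold change was 0.080 (SE 0.26, edgeR adjusted p = 0.912). Olfr558 (MOR18-1, chr7:102702215-102712064, plus strand), the mouse counterpart of human OR51E1 and also known from vascular smooth muscle, had 4.38, 5.77 and 2.98 CPM against 3.87, 5.01 and 5.34 CPM. Its log2 fold change was 0.11 (SE 0.25, edgeR adjusted p = 0.872). In both genes the groups overlapped and wild-type library 2 was the highest wild-type library. The 8 markers of vascular smooth muscle and pericytes, from Acta2 to Rgs5, summed to 0.0979% to 0.123% of all counts in the wild-type group and 0.113% to 0.121% in the transgenic group, and 0 of 8 were called. The part of such cells in the level of Olfr558 was not tested.

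In family MOR7, Olfr578 (MOR7-1, chr7:102981608-102989324, minus strand) was not called. It had 11.4, 17.8 and 12.4 CPM in wild-type and 13.9, 15.4 and 14.2 CPM in transgenic libraries, with the transgenic values inside the wild-type range (log2 fold change 0.064, SE 0.17, edgeR adjusted p = 0.889). By level per kb of exon it was in place 7 of the tested members in wild-type and place 3 in transgenic tissue. Olfr577 (MOR7-2, chr7:102971180-102975943, minus strand) had 3.84, 6.65 and 2.63 CPM against 2.83, 3.36 and 2.61 CPM, which overlapped (log2 fold change -0.58, SE 0.32, edgeR adjusted p = 0.414). Its span overlaps that of Olfr576 on the other strand by 3981 bases without sharing exon. Olfr556 (MOR41-1) was at 0.889, 1.21 and 1.52 CPM against 0.790, 0.515 and 0.552 CPM, which did not overlap, yet it was not called (log2 fold change -0.94, SE 0.31, edgeR adjusted p = 0.179). Olfr571 (MOR21-1) was at 0.413, 1.57 and 1.56 CPM against 1.06, 1.34 and 0.994 CPM, and wild-type library 1 alone was far under the rest (log2 fold change -0.060, SE 0.46, edgeR adjusted p = 0.965).

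The 8 members that could not be tested had 2 to 57 counts over the 6 libraries together, and at most 12 in a library. Olfr564 had 2 counts in all. Olfr547, Olfr555, Olfr574 and Olfr583 had at most 6 in any library, as did Olfr589. Olfr568 had 3, 5 and 0 counts in the wild-type and 10, 8 and 8 in the transgenic libraries, and Olfr585 had 10, 10 and 6 against 7, 12 and 12. All transgenic values of Olfr568 were above its wild-type values, and those of Olfr585 overlapped. With no filter on low counts, edgeR called none of the 8, and only Olfr568 had a p under 0.05 before adjustment. Of the 8 genes, 5 belong to MOR14 (Olfr564, Olfr568, Olfr574, Olfr583 and Olfr585).

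Changes were not ordered along the interval by these measures. Across the 28 tested members, Spearman's rho of the log2 fold change was 0.099 with the start position, -0.095 with the mean wild-type CPM, -0.016 with CPM per kb of exon and -0.20 with exon length, as descriptions over genes, which are not independent replicates. The median was -1.58 for the 13 tested members on the plus strand and -1.76 for the 15 on the minus strand. Members that were not called lay beside members that fell. Counts of a gene per 100 counts of a nearby member show this inside each library, free of scaling. The pairs were chosen after their values were seen, and not all are directly adjacent. Olfr33, itself not called, lies between Olfr558 and Olfr559, and pseudogenes lie between Olfr578 and Olfr582. Olfr543 had 3.34, 3.87 and 2.42 counts per 100 of Olfr544 in the wild-type libraries, against 15.5, 16.0 and 25.5. Olfr558 had 246, 189 and 162 per 100 of Olfr559 in wild-type tissue against 1092, 913 and 1611 in transgenic tissue. The mean ratio was 5.92 times as high in transgenic libraries for the first pair and 6.05 times for the second, with no overlap. In all pairs given here but the last, a member not called was set over one called lower, so the direction follows from that choice. Olfr559 had 13, 16 and 9 counts in the transgenic libraries and reached the filter through the wild-type libraries alone. Olfr578 had 222, 278 and 289 per 100 of Olfr582 against 893, 1796 and 1016, and Olfr577 had 87.7, 76.6 and 42.9 per 100 of Olfr576 against 160, 156 and 127. Olfr571 had 11.2, 20.9 and 32.1 per 100 of Olfr572 against 59.1, 90.7 and 47.4. For the near copies Olfr545 and Olfr544 the ratio overlapped, with 40.4, 28.7 and 23.5 against 29.4, 33.6 and 38.8.

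**Figure D2:**
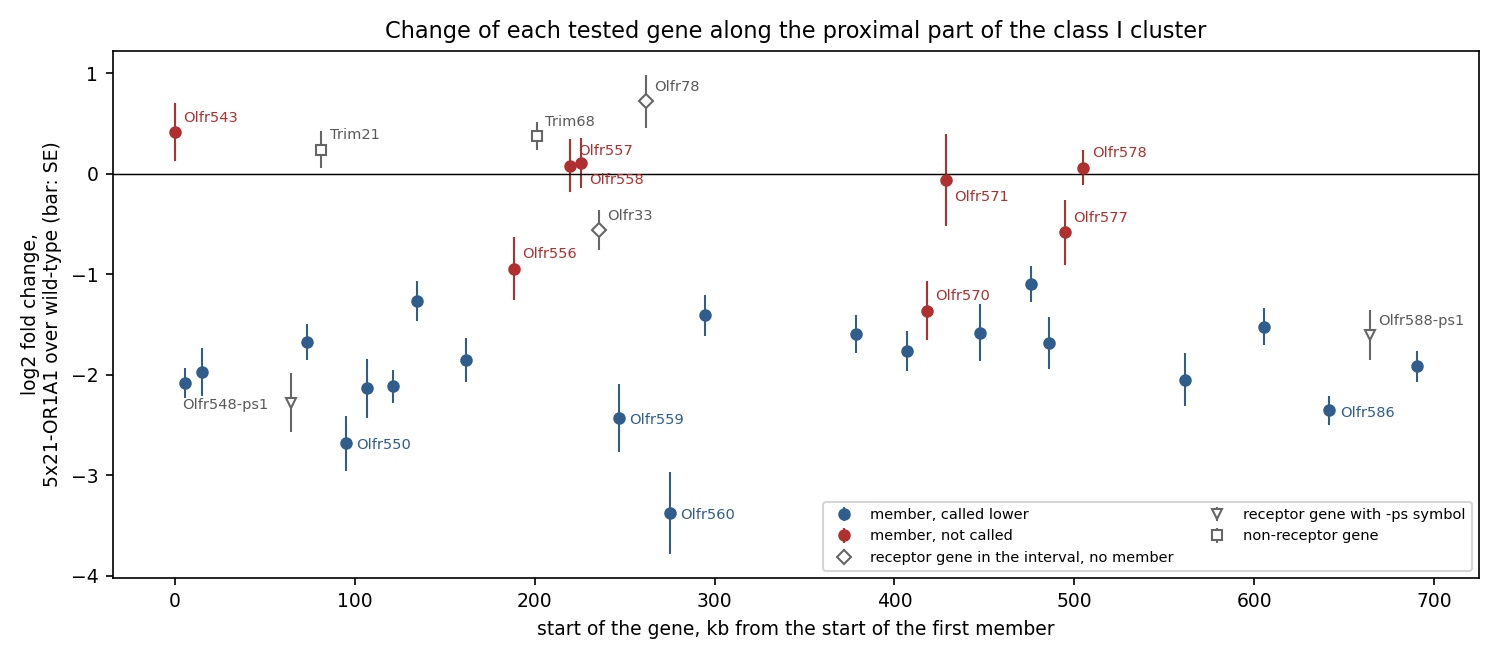
Log2 fold change, 5x21-OR1A1 over wild-type, of each tested gene against its distance from the start of the first member in kb, with bars for the SE. Filled points are members, blue if called lower and red if not called, and open points are other genes of the interval; red points lie among the blue ones along the interval, with Olfr560 lowest at -3.37 and Olfr543 highest of the members at 0.42.

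**Figure D3:**
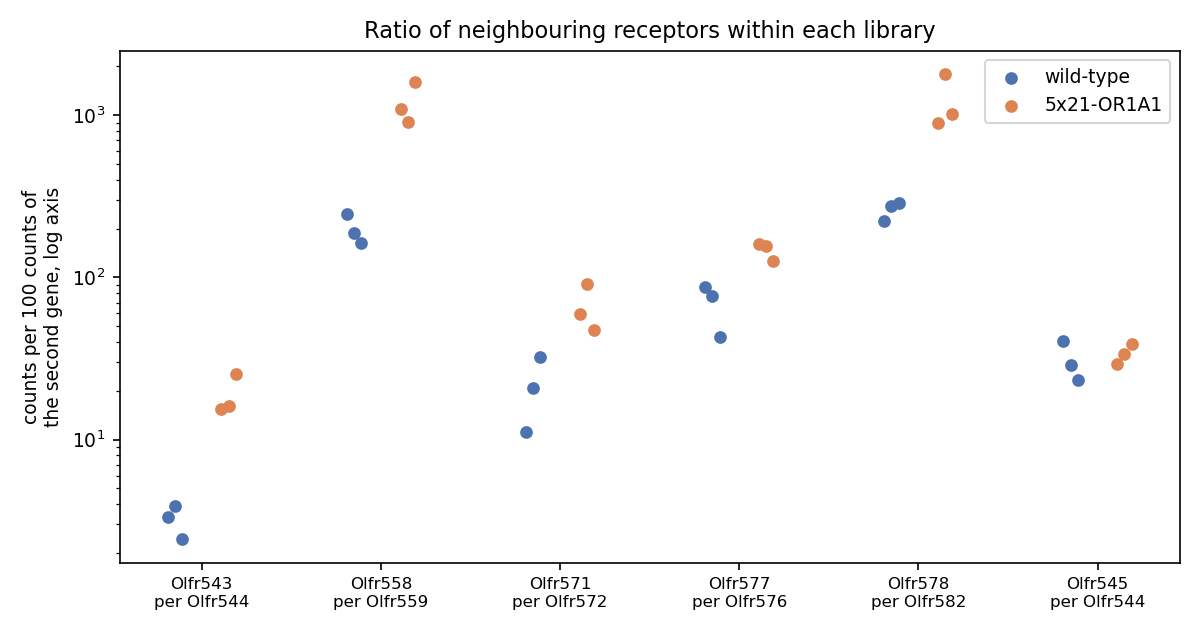
Counts of a receptor per 100 counts of a nearby receptor in each of the 6 libraries, on a log axis. In the first 5 pairs, each a member not called over one called lower, all transgenic points lie above all wild-type points. For Olfr545 per Olfr544, both called lower, the groups overlap.

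Pairs of similar sequence differed less in their change, over few pairs. Among the 378 pairs of tested members, the 10 pairs with at least 70% identity over the reading frame differed in log2 fold change by a median of 0.42, the 268 pairs from 55% to 70% by 0.83 and the 100 pairs under 55% by 0.90. Near copies may also have shared reads, and the pairs reuse the same genes, so these are descriptions.

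Other genes lie in the same stretch. Of 12 receptor genes between the members whose symbol carries the pseudogene suffix, 2 could be tested, both annotated as protein coding, and both fell, Olfr548-ps1 by 2.28 and Olfr588-ps1 by 1.60 on the log2 scale (edgeR adjusted p = 0.00808 and 0.0174). The non-receptor genes Trim21 and Trim68, ubiquitin ligases, had log2 fold changes of 0.24 and 0.38 (edgeR adjusted p = 0.564 and 0.221). Rrm1, a subunit of ribonucleotide reductase just before the first member, was at 0.20 (edgeR adjusted p = 0.225). Of the receptor genes with lower numbers, Olfr33 was at -0.56 (edgeR adjusted p = 0.199). Olfr78, the counterpart of human OR51E2 and known from the carotid body, had 6.00, 8.16 and 3.63 CPM in the wild-type libraries against 8.97, 11.1 and 9.39 CPM, which did not overlap, and was not called (log2 fold change 0.72, SE 0.26, edgeR adjusted p = 0.219). When libraries were scaled to mature neuron markers, Olfr78 was called higher (1.41, edgeR adjusted p = 0.00305), as were 74.3% of all genes tested. Trim68 (1.03), Trim21 (0.89) and Rrm1 (0.87) were also called higher in that scaling, in which the median of all genes was 0.69. Without it, the groups of Trim68 and Rrm1 did not overlap either, with transgenic values higher, nor did those of Olfr33, with transgenic values lower. Olfr78 shares family MOR18 with Olfr557 and Olfr558, so none of the 3 MOR18 genes of this stretch was called lower. Per 100 counts of Olfr560, which lies inside it, Olfr78 had 136, 155 and 113 counts in the wild-type group against 2193, 6480 and 1417. This ratio is a description, since Olfr560 was the member with the lowest log2 fold change and shares exon with Olfr78. Olfr560 reached the filter through the wild-type libraries alone and had only 15, 5 and 18 counts in the transgenic libraries.

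Most of the other class I receptors, Olfr592 to Olfr692, fell in the same comparison. Of 74 tested, 55 were called lower and 0 higher, with a median of -1.86, against -1.63 for the members. The median was -1.75 for Olfr592 to Olfr642 (25 of 37 lower) and -1.89 for Olfr643 to Olfr692 (30 of 37 lower). Their share of counts went from 0.0748% ± 0.0189 to 0.0241% ± 0.00174 (SD, n = 3 each), and the log2 ratio was -1.64 beside -1.38 for the members. Per 100 counts of other class I receptors the members had 34.4, 33.0 and 36.7 counts in the wild-type group against 40.1, 41.8 and 41.7, which did not overlap. The difference between the 2 parts of the cluster was not tested further. Among class II receptors, 166 of 768 tested genes were called lower and 17 higher (median -0.63). Per 100 class II counts the members had 8.90, 8.43 and 6.64 counts in the wild-type group against 4.69, 4.99 and 4.89. Within the members, the 8 genes not called held 15.4%, 20.8% and 19.7% of the members' counts in the wild-type group and 34.9%, 38.3% and 40.4% in the transgenic group. The genes were sorted by this same comparison, so this last change is a description.

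**Figure D4:**
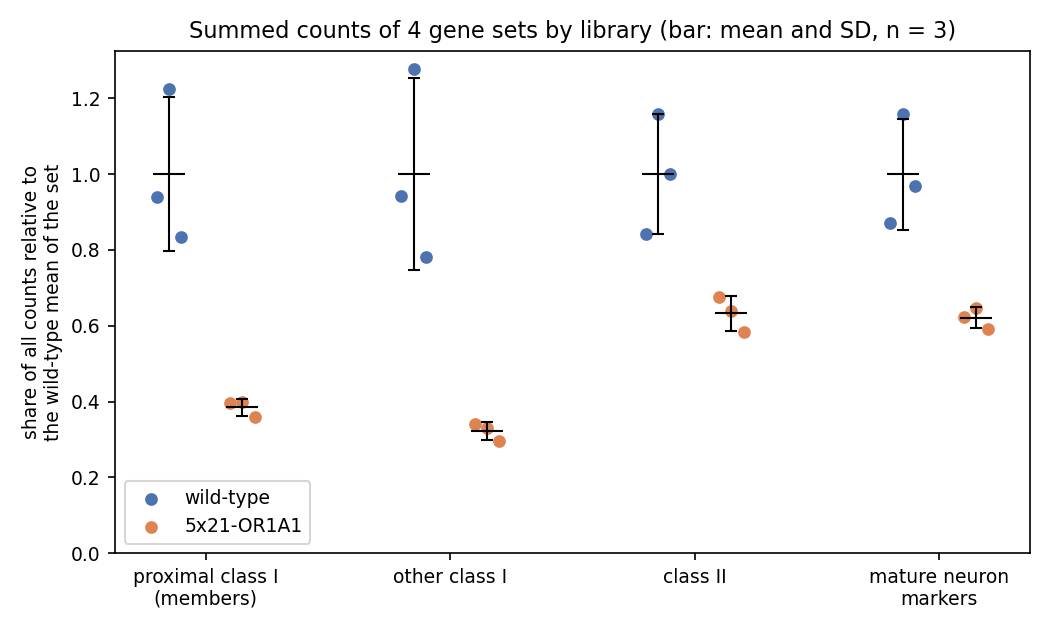
Summed counts of the 36 members, the other class I receptors, class II receptors and 14 mature neuron markers as a share of all counts, relative to the wild-type mean of each set, with mean and SD over 3 libraries. In each of the 4 sets the transgenic points lie below the wild-type points; the log2 ratio is -1.38 for the members, -1.64 for other class I, -0.66 for class II and -0.69 for the markers.

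Markers of neurons at several stages differed beside the members. The 14 markers of mature olfactory sensory neurons summed to 2.04% to 2.72% of all counts in the wild-type group and 1.39% to 1.52% in the transgenic group, and 5 of 14 were called lower, among them Omp, the olfactory marker protein (log2 fold change -0.76), and Gng13, a G-protein subunit (-0.81). Of the transduction genes, 4 of 17 were lower and 0 higher (median -0.60), and 3 of these 4, Omp, Gng13 and Cnga4, are also on the list of mature neuron markers, the other being Ric8b. Of 10 markers of immature neurons 4 were higher, such as Gap43, a growth cone protein (0.78), and of 8 markers of progenitors 5 were higher, such as Insm1 (0.97), a transcription factor of neuron formation. Among regulators of receptor choice, 1 of 19 was called, Ebf4 (-0.74), a factor of the Ebf family, and the median was 0.040. Of the genes listed as dorsal, Nqo1 fell from 515, 691 and 453 CPM to 251, 242 and 237 CPM. For this enzyme of dorsal neurons the log2 fold change was -1.18 (SE 0.15, edgeR adjusted p = 0.00867). Acsm4 (-0.45) was not called, although all its transgenic values were under its wild-type values. Tfap2e (0.34) was not called either, and its wild-type values were low and scattered, at 3.08, 0.577 and 0.173 CPM. Of the ventral markers, 0 of 4 were called (median 0.20). None of the 5 tested sustentacular, 5 gland and 6 erythrocyte markers was called, with medians of -0.22, 0.058 and -0.44.

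Set against mature neuron markers, most members were still lower. The members had 1.19, 1.16 and 0.947 counts per 100 marker counts in the wild-type group against 0.700, 0.679 and 0.665. The log2 ratio was -0.69 without overlap. The marker counts are a sum in which Omp weighs most, with a mean wild-type level of 11518 CPM before Gfy at 2928 CPM. Single markers had log2 fold changes from -0.81 to -0.061. With every library scaled to these markers, which raised the median of all genes to 0.69, 20 members were called lower (19 of them also in the comparison above, Olfr570 in place of Olfr575) and the median of the members was -0.93. In that scaling 1.33% of all genes were lower and 74.3% higher. The 4 members then called higher were Olfr543 (1.11), Olfr557 (0.80), Olfr558 (0.80) and Olfr578 (0.77), beside 0.69 for the median of all genes. The part of the lower mature neuron share in the members' difference was not tested beyond this.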

How the data were processed

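Gene-level raw counts were used as deposited by the authors, 1 column per library with no normalization. Per the submitters' processing notes, TopHat2 2.1.1, HTSeq 0.9.1 and build GRCm38.p5 were used, and per the labels' protocols the poly-A libraries were nonstranded and read as single-end reads of 100 bases. Which annotation release was counted, with which options, and what became of reads matching several places is not given in the sources used here. Because strand was not kept, a gene and an overlapping or antisense partner cannot be separated on bases that are exon of both.

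All rows of the table named a gene. Genotypes were compared by edgeR's quasi-likelihood test (edgeR 4.0.16, R 4.3.3) on TMM-scaled counts. The filter by group (minimum count 10, minimum total 15) kept 19267 genes, p was adjusted over them by Benjamini-Hochberg, and a gene was called under 0.05. The SE of a log2 fold change is its size over the square root of F. CPM is on TMM-scaled totals, and CPM per kb divides by the summed exon length. Replicates differed by far more than counting noise. Alternatives were other scalings and filters, DESeq2 1.42.0, limma-voom (limma 3.58.1), the replicate block, sex as a covariate, a threshold of 0.01 and leaving out each library. The code was tested on simulated data. Sums over members are descriptions without a test.

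The members and gene lists were chosen with earlier results of these data known. Named genes are the 8 most abundant members, the 6 lowest and the 6 highest log2 fold changes, well studied members, every member not tested, and up to 4 genes of each list with the lowest adjusted p; others were named after their values were seen. Coordinates and coding sequences come from a GENCODE annotation of GRCm38, the reading frame being the longest that starts with ATG. Promoter windows come from RefSeq (GRCm38.p6), which held 31 of the 36 members; 9 had a start within 150 bases of the GENCODE start.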

Additional observations from a re-analysis of the deposited data

How the results depend on the processing

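With 3 libraries per group, the count of members called lower moved most with transgenic libraries 1 and 3: it ranged from 13 to 21 when 1 library was left out, the median of the other class I receptors from -1.99 to -1.61, and the members' share of counts from a log2 ratio of -1.49 to -1.20. A threshold of 0.01 left 13 members. With the replicate block, 20 members were lower (median -1.61), with Olfr570 in place of Olfr572. The deviations of same-numbered libraries had correlations of -0.33, 0.072 and -0.17, and those of differently numbered libraries ran from -0.20 to 0.34. With deviations from means of 3 libraries, these values cannot decide whether the numbers pair the libraries. Sex as a covariate left 17, without Olfr572, Olfr575 and Olfr576. Counts with DESeq2 size factors, DESeq2, limma-voom, no filter, a stricter filter or a filter blind to group lay between 19 and 21. Scaling to mature neuron markers gave 4 members higher, beside 74.3% of all genes tested. It gave a median of -0.93 for the members and -1.19 for other class I receptors, and turned Olfr571 (0.67) and Olfr577 (0.13) positive. Without the filter the median was -1.39, over all 36 members. The share of counts had a log2 ratio of -0.69 per marker count and -0.72 per class II count. Values near 0 changed sign: Olfr571 was 0.098 with the replicate block, 0.33 with sex and 0.15 with limma-voom. With 1 library left out, Olfr571 ranged from -0.47 to 0.21, Olfr578 from -0.064 to 0.29, Olfr557 from -0.088 to 0.47 and Olfr558 from -0.10 to 0.37. The causes were not tested. Calls over all genes tested, 523 with all libraries, moved too: 150 to 626 with 1 library left out, 154 at a threshold of 0.01, 377 with the replicate block and 289 with sex. Among the alternatives added after seeing the data, leaving out the members that overlap another receptor gene gave 18 lower, and keeping those that reach the count minimum in every library of both groups gave 17.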
